A study of Mus musculus with 2 samples.

Results

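The hypoxia response was followed through the transcripts of 8 genes: the oxygen-regulated factors Hif1a and Epas1, the oxygen sensors Egln1 and Egln3, and the targets Vegfa, Slc2a1, Bnip3, and Adm. They were chosen by name from the 23946 genes of the deposited counts, and all 8 were found in both libraries. CD45+ cells were sorted from the hearts of adult female C57BL6 mice 24 hours after a single i.p. injection, which delivered either isoproterenol (ISO) at 200 mg/kg, a β-adrenergic agonist that gives a Takotsubo-like cardiomyopathy (TTS), or PBS vehicle (Control). The labels carry the ISO treatment for each sample alike, and the title alone marks which one is the Control. Dead cells were excluded, the cells of 3 hearts were pooled per group, and each pool gave 1 library. The experiment therefore has n = 1 library per group, no difference has a replicate check, and no test was made.

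HIF1A and EPAS1 (HIF-2α) are the α subunits of the hypoxia-inducible factors. When oxygen is plentiful, the prolyl hydroxylases EGLN1 (PHD2) and EGLN3 (PHD3) mark them for VHL-dependent degradation. When oxygen is scarce they persist, pair with ARNT, and activate genes for angiogenesis, glucose uptake, glycolysis, and mitophagy, and Egln1 and Egln3 are themselves among the targets. The activity of the factors is set largely at the protein level, so that a transcript of a factor and the transcripts of its targets are separate measurements. In myeloid cells, inflammatory signals also induce Hif1a transcription, and HIF1A drives their glycolysis.

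The filters kept 5641 Control and 5437 TTS cells, with medians of 4790 and 8537 unique molecular identifiers (UMIs). Ptprc, which encodes CD45, had a UMI in 91.0% of kept Control and 88.8% of kept TTS cells. Barcodes were gated on summed marker UMIs into 9 leukocyte classes, which held 3860 Control and 3774 TTS cells. A further 1611 Control (28.6%) and 1302 TTS (23.9%) barcodes passed gates of 2 lineages and were kept out of the classes. Of these, 574 TTS and 120 Control barcodes passed the neutrophil and a phagocyte gate, against 62 and 117 kept neutrophils. For B cells such barcodes were 146 in TTS and 561 in Control, against 43 and 1973 kept. For T cells they were 115 and 205, against 33 and 180 kept. The TTS classes of these 3 cell types are thus smaller than the barcodes set aside. Macrophages were 969 Control and 2650 TTS cells, monocytes 42 and 670, neutrophils 117 and 62, conventional dendritic cells type 2 (cDC2) 31 and 164, cDC1 42 and 62, B cells 1973 and 43, T cells 180 and 33, NK cells 369 and 25, and group 2 innate lymphoid cells (ILC2) 137 and 65. The cut between macrophages and monocytes is a range of marker levels, and 584 TTS macrophages and 318 TTS monocytes were within 1.5 times of the macrophage limit. The macrophage class also differed in make-up between libraries. Its macrophage markers summed to 30479 CPM in Control and 11512 CPM in TTS, and its classical monocyte markers to 734 and 6713 CPM. TTS monocytes held 6260 CPM of the latter. The part of this in the macrophage ratios was not tested. Levels are given as CPM, in which the UMIs of each gene are scaled to the summed UMIs of its class, with exact Poisson 95% intervals, and log2 ratios are TTS over Control with 95% counting intervals. These cover counting error only. CPM of 3′ tags were compared between classes and libraries for the same gene, not between genes.

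On GRCm38, Hif1a spans chr12:73901375-73947530 (+), Epas1 chr17:86753700-86833410 (+), Egln1 chr8:124908587-124949324 (-), Egln3 chr12:54178981-54203860 (-), Vegfa chr17:46016993-46032369 (-), Slc2a1 chr4:119108711-119137983 (+), Bnip3 chr7:138890836-138909519 (-), and Adm chr7:110627661-110629820 (+). HIF binds DNA at the core letters ACGTG or GCGTG. RefSeq promoter windows were found for 7 of the 8 genes. Of all 32851 such windows of 250 bases before a start site, 38.6% held either core on either strand, 16.6% held ACGTG, and 28.2% held GCGTG. Upstream sequence outside annotated exons is shown for the factor and for 4 genes that were higher with it in TTS macrophages, to set out what the letters upstream of each look like, with each core in capitals in its own orientation, 5′ to 3′ along the gene. The windows are chr12:73907617-73907866 (+), chr7:138909520-138909756 (-), chr4:119108495-119108710 (+), chr12:54203875-54204124 (-), and chr17:46032378-46032627 (-).
Hif1a promoter: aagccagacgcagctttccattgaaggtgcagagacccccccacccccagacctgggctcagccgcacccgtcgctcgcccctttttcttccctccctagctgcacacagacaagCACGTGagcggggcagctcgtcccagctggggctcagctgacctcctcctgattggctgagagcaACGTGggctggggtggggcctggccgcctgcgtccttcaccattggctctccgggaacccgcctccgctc
Bnip3 promoter: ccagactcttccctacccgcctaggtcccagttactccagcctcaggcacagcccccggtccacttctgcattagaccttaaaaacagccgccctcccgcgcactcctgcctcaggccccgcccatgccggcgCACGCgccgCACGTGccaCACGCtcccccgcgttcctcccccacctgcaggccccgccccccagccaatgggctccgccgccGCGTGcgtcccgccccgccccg
Slc2a1 promoter: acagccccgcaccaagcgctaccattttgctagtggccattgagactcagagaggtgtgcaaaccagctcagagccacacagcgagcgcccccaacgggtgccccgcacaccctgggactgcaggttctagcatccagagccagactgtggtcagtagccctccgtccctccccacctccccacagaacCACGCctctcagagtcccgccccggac
Egln3 promoter: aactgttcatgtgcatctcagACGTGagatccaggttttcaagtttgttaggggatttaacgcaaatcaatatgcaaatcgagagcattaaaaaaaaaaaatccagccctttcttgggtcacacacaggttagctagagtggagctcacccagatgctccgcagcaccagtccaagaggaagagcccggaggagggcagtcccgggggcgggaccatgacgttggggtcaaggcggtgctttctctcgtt
Vegfa promoter: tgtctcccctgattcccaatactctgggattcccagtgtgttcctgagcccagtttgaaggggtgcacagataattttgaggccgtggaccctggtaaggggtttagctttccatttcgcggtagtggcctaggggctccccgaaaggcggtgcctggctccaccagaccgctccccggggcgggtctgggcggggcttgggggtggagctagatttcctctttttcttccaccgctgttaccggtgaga
The Bnip3 window held 5 matches, the nearest 35 bases before the start site, and 2 of them overlapped in the palindrome CACGTG. The Hif1a window held 3, of which 2 overlapped in another CACGTG, 135 bases before the RefSeq start. This start is inside the GENCODE gene, which begins further upstream. The Slc2a1 window shown held 1 match, 61 bases before the start, and the Egln3 window 1, 229 bases before it. The Vegfa window shown held 0, which says only that these letters are not in it, and another Vegfa window of RefSeq, inside annotated exons and not shown, held 2. Over the full 250 bases, the windows of Egln1 and Adm, not shown, held 2 each, and so did that of Slc2a1. Distances run to the RefSeq start, which lies past the end of the sequence shown for Slc2a1 (216 bases) and Bnip3 (237 bases). A match is a description of the letters and does not show binding.

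Hif1a, the factor, was at least 2-fold higher in TTS in macrophages, monocytes, neutrophils, cDC2, and ILC2. Control macrophages held 60.2 CPM (54.5 to 66.3) and TTS macrophages 289 CPM (283 to 296), a log2 ratio of 2.26 (2.12 to 2.41). With every cell thinned to 1000 UMIs, 4.95% of Control macrophages (3.67 to 6.51, Clopper-Pearson 95%) and 23.0% of TTS macrophages (21.4 to 24.7) had a Hif1a UMI. In monocytes it was at 110.6 CPM (79.7 to 149) and 316 CPM (303 to 330), with a ratio of 1.498 (1.08 to 1.99). In neutrophils, 29 Control UMIs gave 89.9 CPM and 66 TTS UMIs gave 196 CPM, with a ratio of 1.11 (0.48 to 1.81). In cDC2 the levels were 58.4 and 143 CPM (ratio 1.25, 0.59 to 2.07) and in ILC2 70.9 and 184 CPM (1.38, 0.80 to 1.95). Intervals of both libraries thus stood apart in these 5 classes. They also did in B cells, at 83.7 to 97.7 CPM in Control and 103 to 218 CPM in TTS.

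B cells and T cells held Hif1a at 90.5 and 85.7 CPM in Control, above the Control macrophages, and at 153 and 143 CPM in TTS, with ratios of 0.78 (0.18 to 1.28) and 0.75 (0.05 to 1.38). In NK cells and cDC1 the intervals of the ratio included 0, at 0.57 (-0.54 to 1.43) and 0.42 (-0.24 to 1.12). The TTS lymphocyte gates were small and held more phagocyte RNA than the Control gates. Lyz2, which encodes the lysozyme of phagocytes, was at 141 CPM in Control and 1325 CPM in TTS B cells, at 166 and 3669 CPM in T cells, and at 102 and 3801 CPM in NK cells. The Hif1a UMIs that macrophage marker UMIs would bring along were 10.1 of 30 in TTS B cells and 7.14 of 27 in TTS T cells, against 8.39 of 657 in Control B cells. In TTS NK cells they were 2.31 of 11. Lyz2 was at 15783 CPM in TTS macrophages, and no such estimate was made from it. In ILC2, Lyz2 went from 65.9 to 939 CPM and macrophage markers from 154 to 485 CPM, and 3.24 of the 49 TTS Hif1a UMIs would come with them. Among Control classes, Hif1a ranged only from 53.7 CPM in cDC1 to 110.6 CPM in monocytes, and each class overlapped its neighbour in the order. In TTS, monocytes and macrophages were above all other classes, with intervals that did not overlap. An antisense gene, Gm15283, spans the locus, and whether the counting used strand is not given in the sources used here, so reads of either could not be told apart. Antisense genes also overlap Slc2a1 (Gm12867 and Gm12868), Bnip3 (Gm45507), and Adm (Gm28863), with the same limit. Gm49321 overlaps Hif1a on the same strand.

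Epas1, the factor best known from endothelial cells, was low in every leukocyte class of the Control library. Its highest Control level was in ILC2, at 28.6 CPM (18.1 to 42.9, 23 UMIs in 18 of 137 cells), and ILC2 held 45.1 CPM (23.3 to 78.8) in TTS. Control macrophages held 8.77 CPM of Epas1 (6.69 to 11.3) and TTS macrophages 2.91 CPM (2.29 to 3.64), a ratio of -1.60 (-2.10 to -1.08), opposite in direction to Hif1a. Markers of fibroblasts moved with it, from 120.2 to 4.21 CPM in macrophages, as did endothelial markers, from 29.4 to 11.6 CPM, and their part in the result was not tested. Control barcodes in no gate held Epas1 at 169.6 CPM, where fibroblast markers summed to 2577 CPM and endothelial markers to 648 CPM. In macrophages gated as resident, Epas1 was at 5.67 and 5.30 CPM, with a ratio of -0.07 (-1.30 to 1.03). TTS neutrophils held 95.2 CPM of Epas1, but the 32 UMIs were in 7 cells, 14 of them in 1 cell, and endothelial markers were at 193 CPM there against 21.7 CPM in Control neutrophils.

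**Figure D1:**
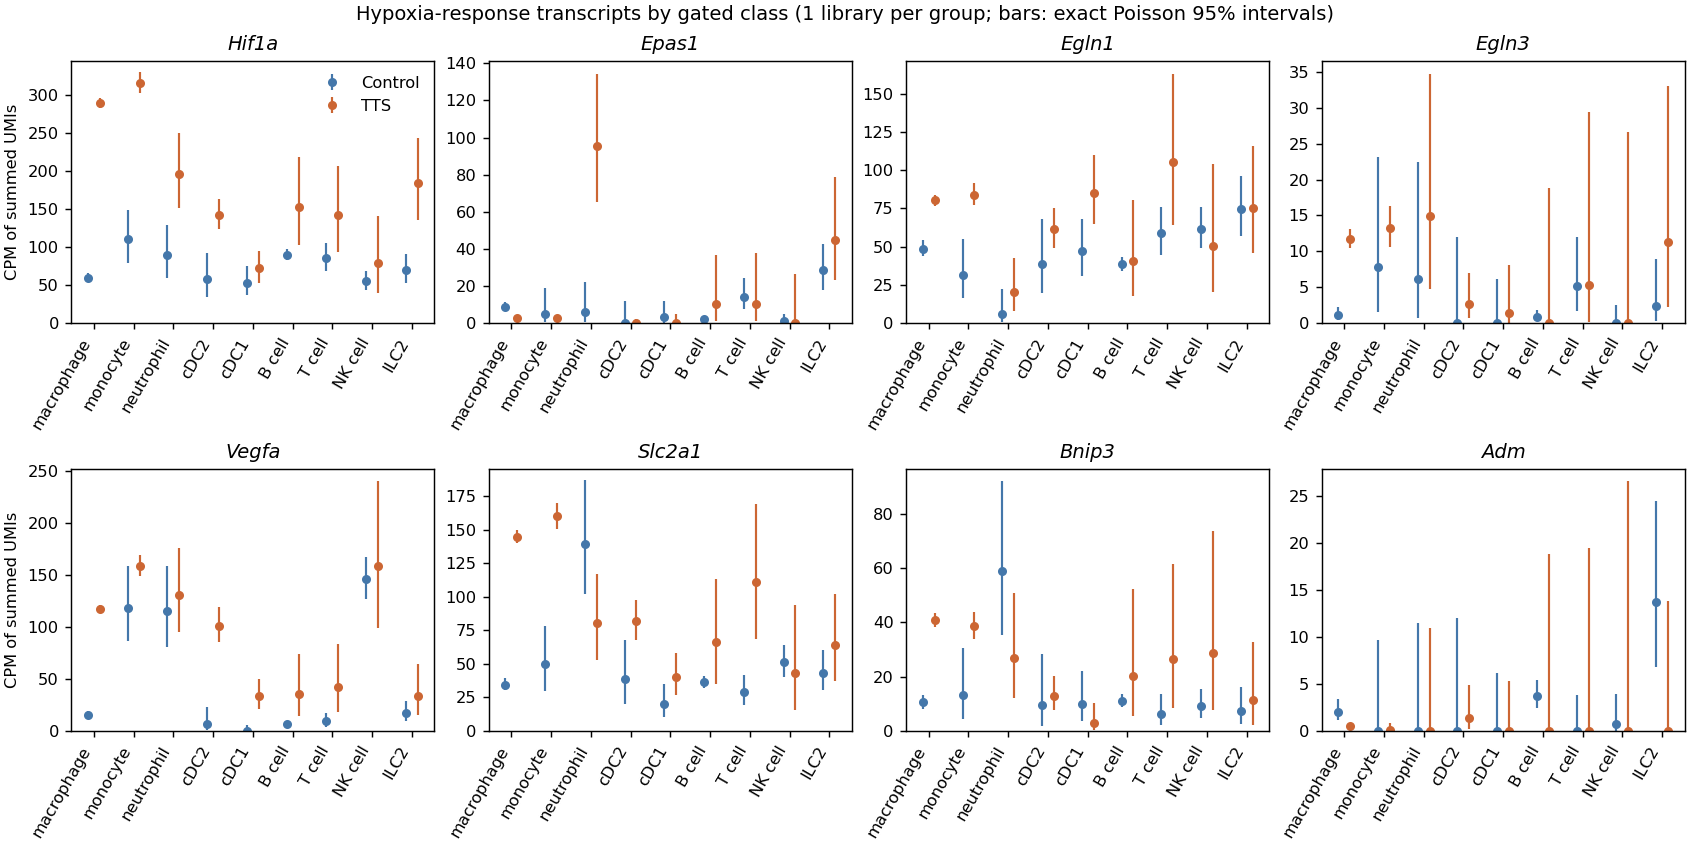
CPM of the 8 genes (y axis, linear from 0, a scale of its own for each gene) in 9 gated classes (x axis) for Control (blue) and TTS (orange), as points with exact Poisson 95% intervals from 1 library per group. Hif1a and Slc2a1 stand apart between libraries in macrophages and monocytes, while Vegfa of monocytes, neutrophils, and NK cells is already above 100 CPM in Control.

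Egln1 and Egln3, the hydroxylases that oppose the factors and are induced by them, differed in size of response. Control macrophages held 48.8 CPM of Egln1 (43.7 to 54.3) and TTS macrophages 80.3 CPM (76.9 to 83.8), a ratio of 0.72 (0.55 to 0.89), short of 2-fold. In monocytes it was at 31.6 and 84.1 CPM, a ratio of 1.35 (0.60 to 2.37), from 12 Control UMIs. In cDC1 Egln1 was at 47.0 and 85.3 CPM, with a ratio of 0.85 (0.19 to 1.56), the only cDC1 value among the 8 genes with at least 50 UMIs whose interval left out 0. Egln1 of ILC2 was the highest in Control, at 74.6 CPM, and stood at 75.2 CPM in TTS. Neutrophils had only 2 and 7 Egln1 UMIs.

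Egln3 was nearly absent from Control macrophages, with 8 UMIs in 7 of 969 cells (1.17 CPM, 0.505 to 2.30). TTS macrophages held 308 UMIs in 220 of 2650 cells (11.8 CPM, 10.5 to 13.2), and the ratio was 3.25 (2.34 to 4.56), the largest of the 8 genes in this class, with an interval that overlapped that of Vegfa. After thinning to 1000 UMIs, 0.103% of Control and 1.51% of TTS macrophages had an Egln3 UMI. TTS monocytes were at 13.2 CPM (10.6 to 16.3), close to the macrophages, and with 3 UMIs in Control monocytes the ratio was 0.53 (-0.85 to 3.05). Cells of the lymphocyte and cDC classes held at most 6 Egln3 UMIs per library.

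Vegfa, the angiogenic growth factor, fell into classes that held it already in Control and classes that held it only in TTS at an appreciable level. Control NK cells were at 146 CPM (126 to 167), with a UMI in 103 of 369 cells, Control monocytes at 118 CPM (86.4 to 159), and Control neutrophils at 115 CPM (80.8 to 158). The same 3 classes were at 158, 159, and 131 CPM in TTS, and the ratios were 0.15 (-0.58 to 0.76), 0.41 (-0.01 to 0.89), and 0.19 (-0.47 to 0.86). The neutrophil ratio was 1.58 with cells thinned to 1000 UMIs and 1.09 with barcodes of 2 lineages placed in the class with the highest score, and the monocyte ratio was -0.58 with thinned cells. Of the 22 Vegfa UMIs of TTS NK cells, 10 were in 1 cell, and without the top cell of each library the NK ratio was -0.46. In NK cells, 0.154 Vegfa UMIs of the 208 in Control would come with macrophage markers. After thinning, 10.6% (7.65 to 14.2) of Control NK cells had a Vegfa UMI, against 0.407% (0.176 to 0.800) of Control B cells and 2.23% (0.612 to 5.62) of Control T cells.

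Control macrophages held 107 Vegfa UMIs in 41 of 969 cells (15.6 CPM, 12.8 to 18.9), and TTS macrophages 3059 UMIs in 860 of 2650 cells (117 CPM, 113 to 121). The ratio was 2.90 (2.63 to 3.20), and the thinned share of cells with a UMI was 0.929% (0.426 to 1.76) in Control and 8.19% (7.17 to 9.30) in TTS. TTS macrophages thereby came to the level of the TTS neutrophils, with overlapping intervals. In cDC2 there were 2 Vegfa UMIs in Control, both in 1 cell, and 148 in TTS (101 CPM, 85.4 to 119), a ratio of 3.64 (2.08 to 7.02), which was 1.504 with every cell thinned to 1000 UMIs. In cDC1 there were 0 in Control, which allows up to 3 UMIs, and 23 in TTS (33.2 CPM, 21.1 to 49.9). TTS B cells were at 35.7 CPM from 7 UMIs, of which 6 were in 1 cell and 4.09 would come with macrophage markers, and without the top cell of each library the ratio was 0.39 in place of 2.58. Of the lymphocytes, T cells had 9 and 8 Vegfa UMIs and ILC2 14 and 9.

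Slc2a1, the glucose transporter GLUT1, was higher in TTS in macrophages, monocytes, and cDC2. It stood at 34.5 CPM (30.2 to 39.2) in macrophages of the Control and at 145 CPM (140.4 to 149.7) in those of the TTS library, a ratio of 2.07 (1.88 to 2.27). Monocytes were at 50.03 and 160.2 CPM, a ratio of 1.64 (1.03 to 2.42), and cDC2 at 38.9 and 81.9 CPM, a ratio of 1.02 (0.22 to 2.07). Neutrophils went the other way, from 139.6 CPM (102 to 187, 45 UMIs) in Control, the highest Control class and apart from all others, to 80.3 CPM (52.9 to 117, 27 UMIs) in TTS. Their ratio was -0.79 (-1.54 to -0.08), while Hif1a of the same cells was higher in TTS. This direction depended on the gate: with barcodes of 2 lineages placed in the class with the highest score, the neutrophil ratio of Slc2a1 was 0.97. T cells were at 28.9 and 111 CPM (ratio 1.95, 1.05 to 2.81) from 49 UMIs in all, 1 short of the minimum for a count, of which macrophage markers would bring 3.58 of 21 in TTS.

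Bnip3, a mitophagy receptor, reached 40.8 CPM (38.4 to 43.3) in TTS macrophages from 10.5 CPM (8.23 to 13.2) in Control macrophages, a ratio of 1.95 (1.61 to 2.32). Monocytes were at 13.2 and 38.5 CPM (ratio 1.42, 0.31 to 3.19). As with Slc2a1, Control neutrophils held the highest Control level, 58.9 CPM (35.5 to 92.0) against at most 13.2 CPM elsewhere, and TTS neutrophils were at 26.8 CPM from 9 UMIs. Adm, which encodes the vasodilator peptide adrenomedullin, was near the limit of detection in the leukocytes of both libraries. Macrophages had 14 Adm UMIs in each library, at 2.05 CPM in Control and 0.535 CPM in TTS, and Control ILC2 had 11 UMIs in 6 cells (13.7 CPM, 6.83 to 24.5) against 0 in TTS ILC2, which allows up to 3 UMIs. Neutrophils, T cells, and cDC1 had 0 Adm UMIs in both libraries.

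**Figure D2:**
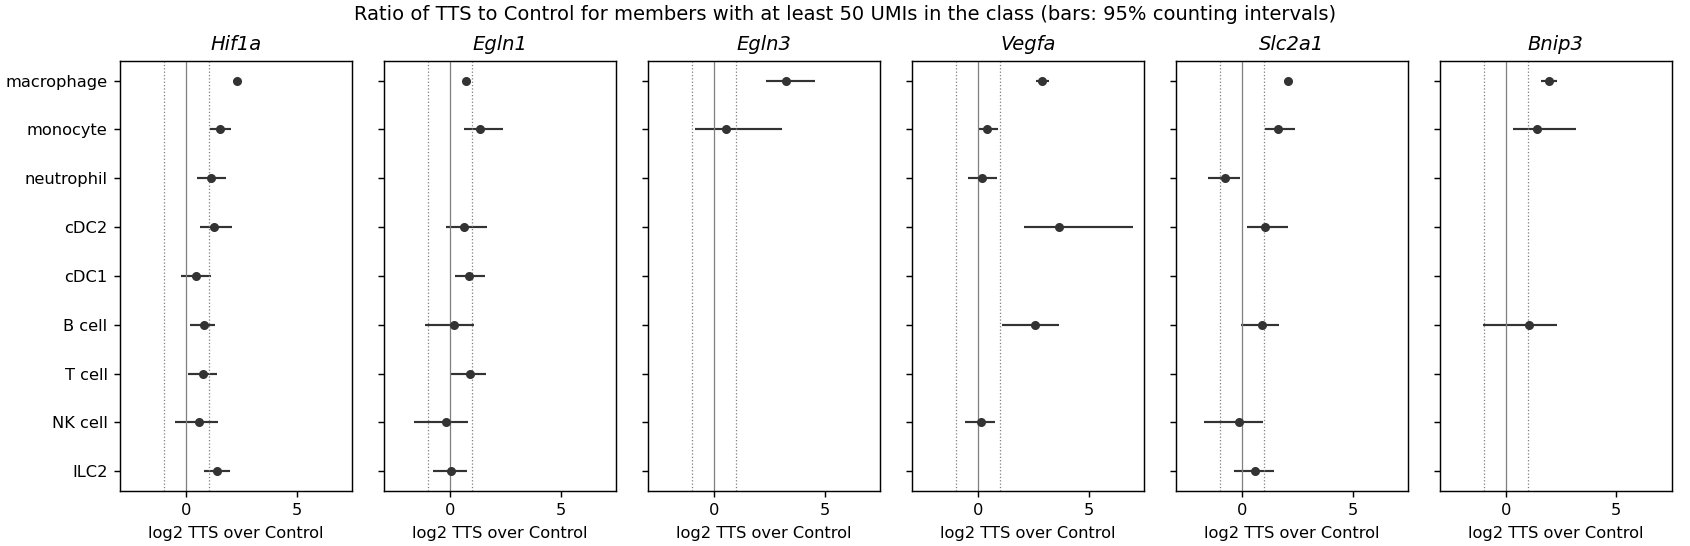
Log2 ratio of TTS over Control (x axis) by class (y axis) for 6 of the genes, shown where the gene had at least 50 UMIs in the class, with 95% counting intervals as bars and dotted lines at 2-fold. Hif1a lies right of 0 in all 9 classes in the setting shown, although it was at -0.48 in NK cells without the top 5% of cells and at -0.28 in T cells thinned to 1000 UMIs, whereas Vegfa is near 0 in monocytes, neutrophils, and NK cells and Slc2a1 is left of 0 in neutrophils.

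A gene was counted in a class if it had at least 50 UMIs over both libraries, and as higher or lower if its ratio was at least 2-fold. A gene could thus be counted through 1 library alone. Egln3 of macrophages had 8 Control and 308 TTS UMIs. Each of the 8 genes called higher in monocytes, cDC2, or neutrophils had under 50 Control UMIs. Monocytes summed to 379777 UMIs in Control and 6434799 in TTS. The shares of all genes and the counts of listed genes used the same minimum. In macrophages 7 of the 8 genes were counted, 5 were higher (Hif1a, Vegfa, Slc2a1, Egln3, Bnip3), and 1 was lower (Epas1), where 8.31% of all 11173 genes counted were higher and 19.5% lower. The median ratio of all genes in macrophages was -0.24, and that of the 7 was 2.07. In monocytes 6 were counted, 4 were higher (Hif1a, Slc2a1, Egln1, Bnip3), and 0 lower, with 11.4% of all genes higher and 16.4% lower. In cDC2 4 were counted and 3 were higher (Hif1a, Vegfa, Slc2a1), with 11.4% of all genes higher and 7.06% lower. Only Vegfa of these stayed 2-fold higher with the gate limits doubled, where Hif1a of cDC2 was at 0.92 and Slc2a1 at 0.98. Over all alternatives Slc2a1 of cDC2 ranged from 0.40 to 1.17.

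In neutrophils 3 genes were counted and only Hif1a was 2-fold higher, beside 16.6% of all genes higher and 15.5% lower. This call was lost, with 0 genes left, when the free RNA estimated from macrophage markers was taken off, when cells with fewer than 1000 genes were left out, or when the top 5% of cells by UMIs were (0.94). ILC2 likewise had 1 of 3 higher (Hif1a), beside 5.61% of all genes higher and 5.58% lower. B cells had 2 of 5 higher, Vegfa and Bnip3, beside 10.7% of all genes higher and 11.9% lower, but these rested on 7 and 4 TTS UMIs, and the Bnip3 interval included 0 (-1.02 to 2.30). Of the genes counted, 0 were 2-fold higher or lower in cDC1 (2 counted, 7.66% of all genes higher and 6.23% lower), in T cells (2 counted, 10.3% and 11.8%), or in NK cells (4 counted, 6.21% and 17.5%). Genes under the minimum, such as Vegfa of cDC1 and Slc2a1 of T cells, were not counted either way.

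**Figure D3:**
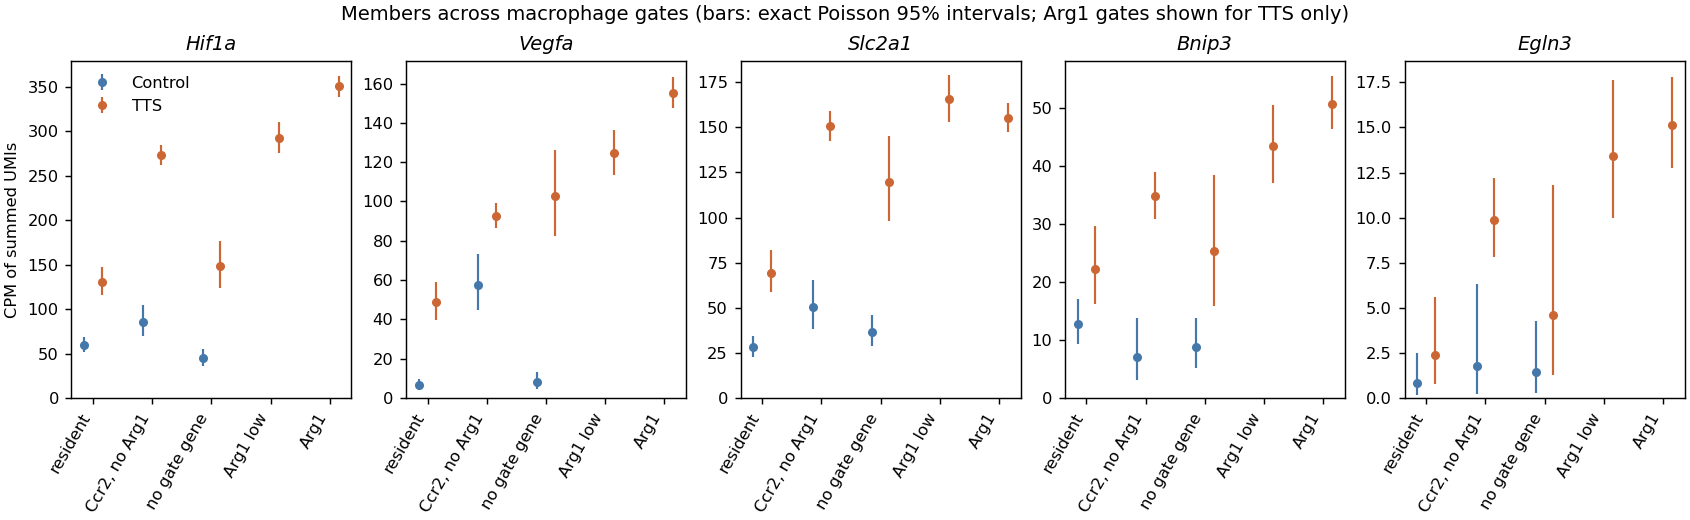
CPM (y axis, from 0) of 5 genes across macrophage gates (x axis) in Control (blue) and TTS (orange), with exact Poisson 95% intervals, where the Arg1 gates are shown for TTS because Control held 7 and 4 such cells. Within TTS, Hif1a and Vegfa are highest in the Arg1 gate, at 351 and 155 CPM, apart from the other gates shown.

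Macrophages were also gated on genes other than the 8: Timd4, Lyve1, and Folr2 for resident cells, Arg1, and Ccr2 without Arg1 for recruited cells. Cells that passed both the resident and the Arg1 gate, 2 in Control and 69 in TTS, were kept apart. The resident values leave them out, and in TTS they held 282 CPM of Hif1a (256 to 311). Resident cells were 43.9% of Control and 7.36% of TTS macrophages, and Ccr2 cells without Arg1 15.7% and 40.5%. Hif1a was higher in TTS in each gate with enough cells in both libraries. Resident cells went from 60.1 CPM (52.3 to 68.7) to 131 CPM (116 to 148), a ratio of 1.13 (0.86 to 1.39). Ccr2 cells went from 85.7 CPM (69.5 to 104) to 273 CPM (262 to 285), a ratio of 1.67 (1.38 to 1.98), and cells with no gate gene from 44.8 to 149 CPM, a ratio of 1.73 (1.33 to 2.13). Each was smaller than the 2.26 of all macrophages. Cells of these gates also differed between libraries in genes other than those that define the gate. Resident cells held Ccr2 at 106 and 347 CPM and MHC class II genes at 12480 and 3409 CPM. MHC class II genes were at 21986 and 2573 CPM in Ccr2 cells, and at 21049 and 2490 CPM in cells with no gate gene. The part of this in the ratios of the gates was not tested. The 772 TTS cells of the Arg1 gate held the highest level, 351 CPM (339 to 363).

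For Vegfa the gates differed more. Control resident cells were at 6.52 CPM (4.13 to 9.78) and Control Ccr2 cells at 57.7 CPM (44.6 to 73.4), so that 66 of the 107 Vegfa UMIs of Control macrophages were in the Ccr2 gate, 17 of them in 1 of its 152 cells. In TTS they were at 48.7 CPM (39.7 to 59.2) and 92.7 CPM (86.3 to 99.5). The ratio was 2.88 (2.24 to 3.62) in resident and 0.67 (0.32 to 1.07) in Ccr2 cells, and these intervals did not overlap. Without the top cell of each library the ratios were 3.40 and 1.05. Cells with no gate gene had a ratio of 3.60 (2.87 to 4.47). The Arg1 gate held 155 CPM of Vegfa (148 to 163) in TTS, near the 159 CPM of TTS monocytes. Slc2a1 had ratios of 1.30 (0.93 to 1.69) in resident and 1.56 (1.19 to 1.98) in Ccr2 cells, and Bnip3 of 0.80 (0.17 to 1.42) and 2.23 (1.32 to 3.54). Egln3 was at 2.41 CPM in TTS resident and 15.1 CPM in TTS Arg1 cells. The 69 TTS cells that passed both of these gates held Vegfa at 91.5 CPM, Bnip3 at 39.9 CPM, and Egln3 at 14.5 CPM. How far leaving them out lowers the resident ratios was not tested. Median depth was 8153 UMIs in TTS resident and 10026 UMIs in TTS Arg1 cells, and since the Arg1 gate asks for at least 3 Arg1 UMIs, deeper cells pass it more easily.

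**Figure D4:**
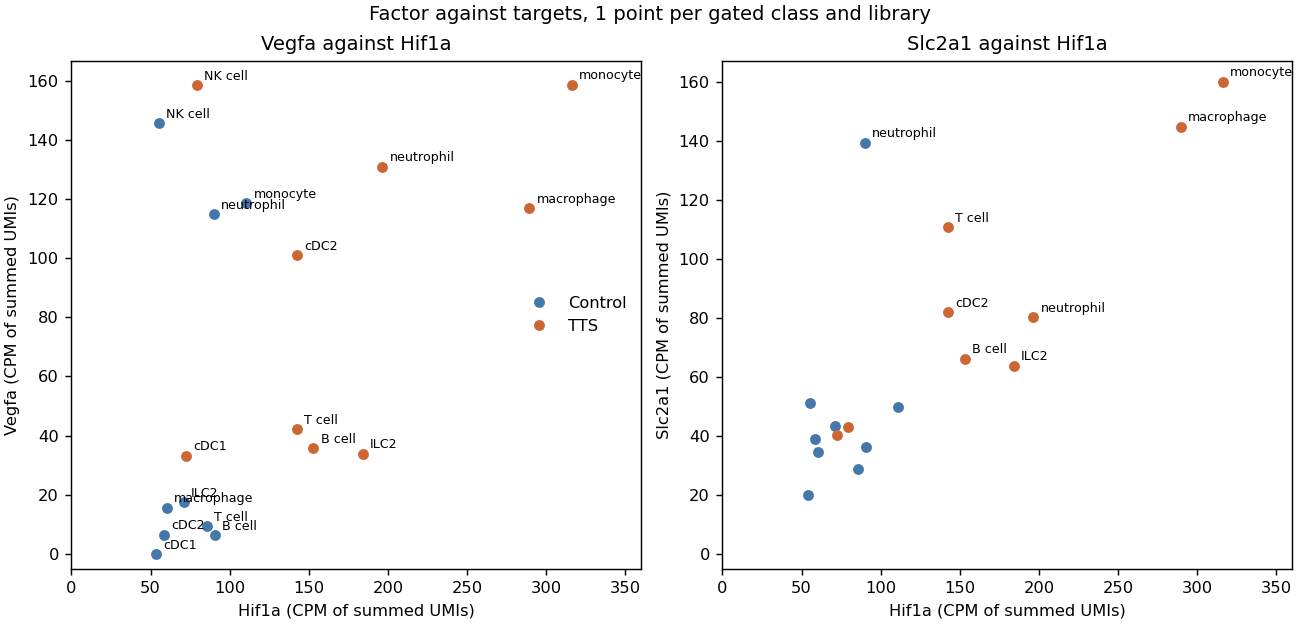
CPM of Vegfa (left) and Slc2a1 (right) on the y axes against CPM of Hif1a (x axis), 1 point per class in Control (blue) and TTS (orange), with crowded points of the right panel left without names. NK cells, monocytes, and neutrophils of the Control library lie high in Vegfa at 55.3 to 110.6 CPM of Hif1a, and Control neutrophils lie high in Slc2a1.

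Set against each other across classes, classes with like levels of the factor differed in a target. TTS ILC2 and TTS cDC2 did not differ in Hif1a beyond counting error, at 184 CPM (136 to 243) and 143 CPM (124 to 163), but held Vegfa at 33.8 CPM (15.5 to 64.2) and 101 CPM (85.4 to 119). TTS NK cells held Hif1a at 79.2 CPM (39.5 to 142) and Vegfa at 158 CPM (99.2 to 240), from 11 and 22 UMIs. Of the 11 Hif1a UMIs 6 were in 1 cell, and without the top cell of each gene the levels were 39.4 and 98.0 CPM. Over the 12 class and library groups with at least 50 cells, the Pearson correlation of log2 CPM of Hif1a was 0.85 with Egln3, 0.75 with Slc2a1, 0.63 with Bnip3, 0.50 with Vegfa, 0.14 with Egln1, 0.15 with Epas1, and -0.38 with Adm. Vegfa was closest to Slc2a1 among the 8, at 0.82, and was at -0.46 with Adm. The points share 2 libraries, their depth, and any free RNA. Only macrophages, neutrophils, and ILC2 entered from both libraries. B, T, and NK cells entered from Control alone, and monocytes, cDC2, and cDC1 from TTS alone, so class and library cannot be told apart in these. Of 5807 genes compared, those most like Hif1a over these groups were Inhba (0.91), Pdpn (0.89), and Saa3 (0.88), and those most like Vegfa were Lrrfip1 (0.93), Itgb2 (0.91), and Slc3a2 (0.90).

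The other genes of the pathway were taken from 5 lists with 77 genes, 76 of them in the files. In macrophages 64 had at least 50 UMIs, of which 21 were at least 2-fold higher and 8 lower, beside 8.31% and 19.5% of all genes. Among regulators of HIF, 0 of 13 were higher and 1 was lower, the coactivator Ep300 at -1.02. The partner subunit Arnt was at 52.0 CPM in Control with a ratio of -0.67 (-0.85 to -0.49), the asparaginyl hydroxylase Hif1an was at -0.78 (-1.10 to -0.45), and Rbx1, a subunit of the VHL ligase, was at 0.88 (0.80 to 0.97). Of 19 glycolysis genes, 11 were higher and 1 was lower, led by Pkm (2.84), Gapdh (2.32), Tpi1 (2.32), and Ldha (2.31). These encode glycolytic enzymes, and Ldha makes the lactate. Pfkfb4 was the gene that was lower, at -1.21. Gapdh, Eno1, Pgk1, and Pgam1 have processed copies in the genome that can take reads, and their levels are uncertain.

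Of 22 other HIF targets, 9 were higher and 3 lower, and the median was 0.38. Hilpda, a lipid droplet protein, went from 39.0 CPM with a ratio of 3.62 (3.45 to 3.80), Ankrd37 was at 3.60 (3.03 to 4.29), and Ddit4, an inhibitor of mTORC1, at 3.14 (2.701 to 3.66). Edn1, which encodes endothelin, was lower at -2.88 from 37 and 19 UMIs, and Bnip3l, the close relative of Bnip3 that was picked out after its value was seen, was lower at -1.29 (-1.47 to -1.11). In the VEGF family the ligands went apart: Pgf was higher at 2.74 (1.77 to 4.17), from 7 and 191 UMIs, and Vegfb was lower at -2.29 (-2.66 to -1.92). The coreceptor Nrp1 was lower at -2.05 (-2.14 to -1.97), from 337 CPM in Control, while Nrp2 was at -0.35 (-0.52 to -0.18), from 53.0 and 41.6 CPM, and Flt1, a receptor for VEGFA, at -0.83 (-1.21 to -0.44). Of 4 genes listed for adrenomedullin receptors, 1 was lower (Ramp2, -2.42, 52 and 37 UMIs). The receptor Calcrl was at -0.90 (-1.21 to -0.58), Ramp1 at -0.95, and Ramp3 at 0.95 (0.51 to 1.46, 44 and 329 UMIs). The endothelial markers that moved in macrophages, described for Epas1, moved with Edn1, Flt1, Ramp2, and Calcrl, and 11 of the 52 Control Ramp2 UMIs were in 1 cell. Control barcodes in no gate held Flt1 at 244 CPM, and the part of such RNA in these values was not tested.

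The genes listed for VEGF and adrenomedullin receptors were not evenly spread over the leukocytes. Nrp1 was highest in Control macrophages, at 337 CPM, followed by Control monocytes at 150.1 CPM and Control cDC1 at 121 CPM, and TTS monocytes were at 33.3 CPM. Flt1 and Kdr were at 12.4 and 4.82 CPM in Control macrophages and at 62.5 and 20.8 CPM in TTS neutrophils, where the endothelial markers described for Epas1 were raised. Kdr is itself among these markers. Flt4 had at most 3.10 CPM in any class, a level that came from 1 UMI in Control neutrophils. Ramp1 and Ramp3, which pair with Calcrl, were high in ILC2. They were at 408 and 249 CPM in Control and at 432 and 549 CPM in TTS, and Calcrl was at 38.5 and 37.6 CPM. The pair of Calcrl with Ramp1 is mainly the receptor of another peptide, CGRP. Ramp3 of cDC2 was at 32.4 CPM in Control and 182 CPM in TTS. NK cells held Vegfc beside their Vegfa, at 24.5 CPM in Control (17.1 to 34.1, 35 UMIs). TTS NK cells were at 28.8 CPM of Vegfc (7.85 to 73.7), from only 4 UMIs.

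**Figure D5:**
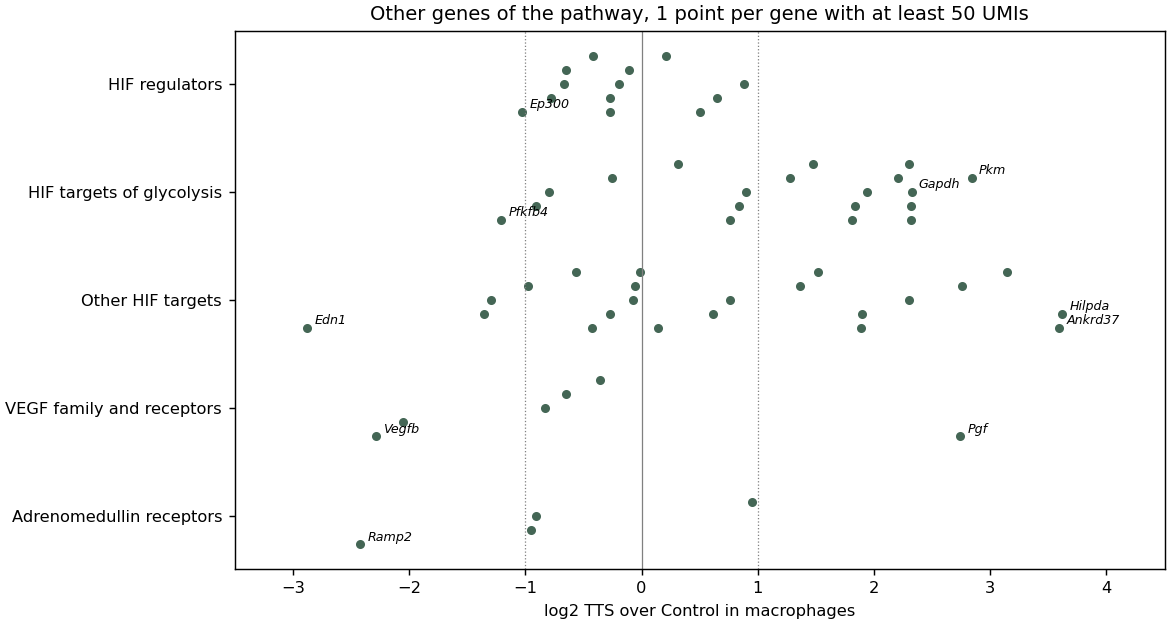
Log2 ratio of TTS over Control in macrophages (x axis) for the genes of 5 lists (y axis), 1 point per gene with at least 50 UMIs, spread vertically for legibility, with dotted lines at 2-fold. Glycolysis genes lie mostly right of 0, with 11 of 19 at least 2-fold higher, whereas the 13 HIF regulators lie between -1.02 and 0.88.

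In monocytes, 17 of 54 listed genes were higher and 10 lower, beside 11.4% and 16.4% of all genes, with 8 of 16 glycolysis genes and 8 of 19 other targets higher. The counts of listed genes higher and lower were 11 and 3 of 33 in cDC2 (beside 11.4% and 7.06% of all genes), 4 and 1 of 24 in cDC1 (7.66% and 6.23%), 6 and 3 of 24 in neutrophils (16.6% and 15.5%), and 6 and 3 of 32 in ILC2 (5.61% and 5.58%). Those of the lymphocytes were 13 and 3 of 47 in B cells (10.7% and 11.9%), 12 and 4 of 33 in T cells (10.3% and 11.8%), and 8 and 10 of 32 in NK cells (6.21% and 17.5%). Rora is among the listed genes and also among the markers of the ILC2 gate. In NK cells, where Vegfa was high in both libraries, the median of the listed genes was -0.17, beside -0.21 for all genes of these cells. The lists went apart there, with 5 of 11 glycolysis genes higher at a median of 0.83 and 6 of 11 regulators of HIF lower at a median of -1.06. In T cells it was 0.48 beside -0.04, and phagocyte RNA in these gates, described above for Lyz2, moved with it. Its part in the lymphocyte counts was not tested beyond taking off the free RNA estimated from macrophage markers.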

How the data were processed

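Gene expression of CD45+ heart cells was measured by 10x Genomics 3′ single-cell sequencing, with 1 Control and 1 TTS library. The deposited values are counts of UMIs per gene and barcode, without normalization. The authors made them, per the submitters' processing notes, with bcl2fastq 2.19.1.403, UMI-tools 1.0.0, STAR 2.7.3a, and featureCounts 1.6.4 on mm10, and the strand setting is not given in the sources used here. The libraries hold 47382455 and 58495112 UMIs for 5927 and 5514 barcodes, and 15 barcode sequences occur in both.

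Barcodes were kept if they had over 500 but not 6000 genes, and if less than 25% of their UMIs were mitochondrial. Classes were gated on marker UMIs per 10000, with limits set after the marker distributions were seen. Barcodes passing gates of 2 lineages were left out as possible doublets, and no doublet caller was run. UMIs were summed per class and library, and 0.5 UMI was added for log2 ratios. With 1 library per group no test was made. The ratio step was tested on simulated data. The genes and lists were chosen with earlier results of these data known. The genes named in the text are the 8 members, listed pathway genes, and the 3 genes most like Hif1a and Vegfa. At most 4 genes with the largest ratio in macrophages were named per list, with Pfkfb4, Bnip3l, and the pseudogene-prone glycolysis genes added after values were seen, and all VEGF and adrenomedullin receptors. The alternatives varied cell filters, gates, weights, thinning, scaling, totals, free RNA, and limits. Alternatives added after the data were seen were phagocytes as 1 class and leaving out the cell with the most UMIs of a gene. Python 3.11.15, numpy 2.4.6, scipy 1.17.1, pandas 2.3.3, and matplotlib 3.10.9 were used. Gene positions come from GENCODE vM21 and promoter windows from RefSeq on GRCm38.p6.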

Additional observations from a re-analysis of the deposited data

Results flagged for a closer look

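Slc2a1 moved in opposite directions in different classes: its log2 ratio of TTS over Control was -0.79 in neutrophils, against 2.07 in macrophages, 1.64 in monocytes, and 1.02 in cDC2. With 1 library per group, this difference between classes was not tested. It rests on 45 Control and 27 TTS UMIs in neutrophils. The neutrophil ratio kept its direction in 10 of 12 alternatives and ranged from -1.04 to 0.97. The latter value came with barcodes of 2 lineages placed in the class with the highest score. In barcodes that passed both the neutrophil and a phagocyte gate, which hold RNA of both, Slc2a1 was at 61.0 CPM in Control and 144 CPM in TTS.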

How the results depend on the processing

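No paired analysis was possible because each group is 1 library, and for the same reason no replicate could be left out. Depth limits the smaller classes: 25 TTS NK cells, 33 T cells, and 43 B cells give few UMIs of most of the 8 genes, and any difference there was read within its counting interval. The 17 ratios of at least 2-fold kept their direction in 208 of 210 values under the alternatives and stayed 2-fold in 184. The exceptions in direction were Bnip3 of B cells, at -0.42 with gate limits doubled and -0.25 without the top 5% of cells by UMIs. Among smaller ratios, Hif1a was at -0.48 in NK cells without those cells, at -0.31 there without the cell with the most UMIs of the gene, and at -0.28 in T cells with cells thinned. In macrophages the ratio ranged from 2.04 to 2.50 for Hif1a, 2.58 to 3.23 for Vegfa, 1.96 to 2.31 for Slc2a1, 2.83 to 3.65 for Egln3, 1.57 to 2.22 for Bnip3, and -1.70 to -0.76 for Epas1. The count of 5 members higher in macrophages did not change by over 1.5 times under any alternative, phagocytes as 1 class included.

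The following counts of the 8 members and of the pathway list genes moved by over 1.5 times, and the cause was not tested unless given. With every cell at the same weight, members higher were 1 in B cells and cDC1, and list genes lower were 1 in ILC2. With cells thinned to 1000 UMIs, which leaves fewer genes over the UMI minimum, members higher were 0 in ILC2, cDC2 and neutrophils, 1 in B cells, 2 in monocytes, members lower were 0 in macrophages, list genes higher were 0 in neutrophils, 1 in ILC2 and cDC1, 2 in T cells, 4 in NK cells and cDC2, 6 in B cells, and list genes lower were 0 in ILC2, T cells, cDC1, cDC2 and monocytes, 1 in NK cells, 5 in B cells. Without mitochondrial genes and Gm26924 in the totals, members higher were 1 in B cells. Without the top 5% of cells by UMIs, members higher were 0 in B cells and neutrophils, 1 in cDC1, members lower were 1 in NK cells and neutrophils, and list genes lower were 0 in ILC2 and cDC1, 6 in NK cells. With free RNA taken off, members higher were 0 in neutrophils, 1 in B cells, members lower were 1 in neutrophils, list genes higher were 6 in B cells, and list genes lower were 8 in B cells. At 1.5-fold in place of 2-fold, members higher were 1 in cDC1, 2 in T cells, 4 in B cells, members lower were 1 in neutrophils, list genes higher were 11 in neutrophils, 12 in ILC2 and cDC1, 18 in cDC2, 22 in B cells, and list genes lower were 5 in B cells, ILC2 and neutrophils, 18 in macrophages. With barcodes of 2 lineages in the class with the highest score, members higher were 1 in NK cells, cDC1 and cDC2, 2 in ILC2, 3 in T cells and neutrophils, members lower were 2 in macrophages, list genes higher were 9 in cDC1, 15 in NK cells, 18 in neutrophils, 25 in B cells, and list genes lower were 1 in ILC2, 3 in cDC1, 6 in neutrophils. With gate limits doubled, members higher were 1 in NK cells, cDC1 and cDC2, 2 in T cells and neutrophils, list genes higher were 16 in neutrophils, 20 in B cells, and list genes lower were 0 in cDC1, 5 in B cells, 6 in neutrophils. At a minimum of 20 UMIs, members higher were 1 in T cells and cDC1, 2 in neutrophils, members lower were 1 in monocytes and neutrophils, 2 in macrophages, list genes higher were 7 in cDC1, 11 in neutrophils, 13 in NK cells, 21 in T cells, and list genes lower were 3 in cDC1, 8 in cDC2. With at least 1000 genes per cell, members higher were 0 in neutrophils. With 3 UMIs added, list genes lower were 0 in ILC2 and cDC1, 1 in T cells, 2 in NK cells. Under 10% mitochondrial UMIs, list genes lower were 0 in cDC1.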
